A study of Drosophila melanogaster with 4 samples.

Results

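Broad H3K9ac domains are stretches of at least 8 kb over which acetylated lysine 9 of histone H3 was called as 1 continuous enriched region. They were taken from the series-wide list of enriched regions, termed clusters, by width alone (end minus start plus 1, at least 8000 bp, on any sequence). The rule found 413 domains among 12322 clusters. The mark was mapped by ChIP-seq, in which chromatin bound by an antibody is recovered and sequenced, in whole Drosophila melanogaster embryos of the wild-type strain Oregon-R, aged 14 to 16 h per the labels. There were 2 H3K9ac ChIP samples, replicates 1 and 2, and 2 input chromatin samples. No values of the input samples were analysed here. Whether the input entered the calling or scoring of the deposited regions was not given in the sources used. Nothing in the labels tells whether different embryo collections lie behind the replicates, and differences between them may be technical. Whole embryos mix all cell types, so a domain seen here may be carried by some cells and not by others.

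Acetylation of H3 lysine 9 is placed by histone acetyltransferases, in flies among others by Gcn5 in the SAGA complex, and is taken off by histone deacetylases. It neutralises the charge of the histone tail and is bound by proteins with bromodomains. The mark is known chiefly from narrow stretches around the start sites of active genes. Wide stretches of promoter-type marks have been described in mammalian cells over genes that define the identity of a cell. At this age fly embryos are forming their larval organs, and many tissues are differentiating side by side.

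Coordinates below are those of FlyBase release 5, counted from 1, as in the deposited files. Gene positions were to hand for release 6 alone and were not converted, so domains are named by arm and position. The width and the score of a domain come from the same libraries as the replicate lists, and the width chose the domains. All values below are therefore descriptions, given beside the same values for the other clusters, and no test was run between them. With 1 list per replicate, a difference between the replicates has no test either. Read depth is unknown.

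Domains made up 3.35% of the series-wide clusters and 14.5% of the bases under them, 4.95 of 34.0 Mb. Their median width was 10.2 kb, against 2019 bp for the other 11909 clusters. Widths were bunched near the threshold: 193 domains were under 10 kb, 150 were between 10 and 15 kb, 40 between 15 and 20 kb, and 30 reached 20 kb or more. The widest spanned 43.3 kb. The cut at 8 kb fell within a continuous range of widths. Just inside it lay a cluster of 8007 bp on 2L at 18319376 to 18327382, another of 8007 bp on 3L at 2387362 to 2395368, and one of 8017 bp on 2R at 15114418 to 15122434. Just outside lay a cluster of 7989 bp on 3L at 6818270 to 6826258, another of 7989 bp on 3R at 7439202 to 7447190, and one of 7985 bp on 2L at 1469602 to 1477586. The 3 clusters inside scored 0.826, 0.617 and 0.752, and the 3 outside 0.514, 0.710 and 0.524, on the authors' own scale.

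The widest domains were nearly continuous in replicate 1 and broken into several clusters in replicate 2. The widest lay on 3R at 8062734 to 8106062. Replicate 1 crossed it with clusters of 5.65, 27.5 and 9.89 kb, which together covered 99.1% of it. Replicate 2 held 7 clusters there, the widest of them 10.2 kb at 8070183 to 8080373 and 8.79 kb at 8084313 to 8093105. The best-scoring cluster of each replicate in this domain, with 1.08 in replicate 1 and 1.06 in replicate 2, overlapped that of the other. The second widest was 38.3 kb on 2L at 640094 to 678426. Replicate 1 held 3 clusters there, of 8.61, 5.50 and 24.4 kb, which together covered 93.9% of it. The 24.4 kb cluster ran on past the end of the domain to 680933. In replicate 2 the same domain held 6 clusters of 1.44 to 5.47 kb, which left out more than they covered. The third, 36.5 kb on 3R at 25077708 to 25114210, consisted of 2 clusters of replicate 1, 19.4 and 16.1 kb wide, and 6 of replicate 2, of 2.10 to 6.19 kb.

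**Figure D1:**
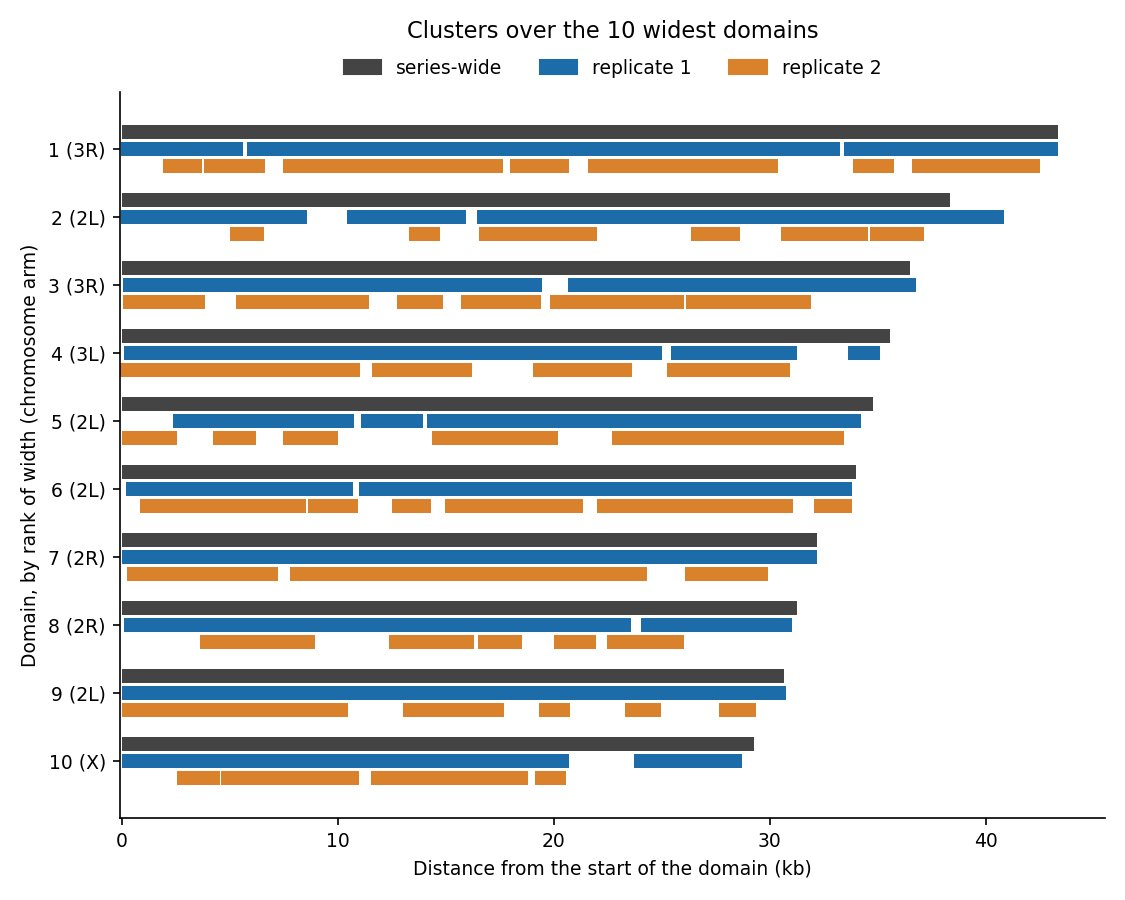
Clusters of the series-wide list, of replicate 1 and of replicate 2 over the 10 widest domains, drawn to scale against the distance in kb from the start of each domain. Replicate 1 crossed each of the 10 with 1 to 3 clusters, and replicate 2 with 3 to 7.

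Of the 10 widest, the seventh, on 2R at 20927994 to 20960190, and the ninth, on 2L at 6178298 to 6208940, were single clusters in replicate 1. They were covered to 99.9% and 99.99% there, and to 84.9% and 64.9% in replicate 2. The seventh held the widest cluster of replicate 1, 32.2 kb at 20928004 to 20960166. The others of the 10 were 3L at 22128620 to 22164164, 2L at 15453394 to 15488164, 2L at 9578340 to 9612326, 2R at 15917002 to 15948250 and X at 473050 to 502328. Their widths were 35.5, 34.8, 34.0, 31.2 and 29.3 kb. Replicate 1 covered 87.9% to 98.1% of each, and replicate 2 covered 53.8% to 85.4%. A single X domain was among the 10.

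Every domain lay on one of the 5 large arms. The 167 series-wide clusters on chromosome 4, the heterochromatic scaffolds and unplaced sequence included 0 domains. The widest of these 167 was a 6.59 kb cluster on chromosome 4 at 1047982 to 1054568. The arm 3R had 103 domains, 2R had 91, 2L had 86, 3L had 76 and the X had 57. The X thus had 2.54 domains per megabase of assembled arm, against 3.69 for the 4 autosome arms together. Among these the density was 4.30 for 2R, 3.74 for 2L, 3.69 for 3R and 3.10 for 3L. Domains made up 2.84% of X clusters and 3.51% of autosome clusters. They held 12.1% of the covered bases of the X, against 15.2% on the autosome arms. Median width was 9.21 kb on the X, lower than the 10.1 to 10.4 kb of the autosome arms.

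Domains were absent from the last 1 Mb of assembled sequence on the centromere side of 4 of the 5 arms. The nearest domain to that end was 1794 kb away on the X, 1173 kb on 2L, 2414 kb on 2R and 1876 kb on 3L. On 3R the first 1 Mb held 4 domains, the nearest 665 kb from the end. Clusters of any width were also few near the centromere on the other 4 arms. The first 1 Mb of 2R held 16, and the last full 1-Mb bin held 40 on 2L, 9 on 3L and 48 on the X. The first 1 Mb of 3R held 124 clusters. At the telomere side, the first 1 Mb held 139 clusters on 2L, 135 on 3L and 116 on the X. The lack of domains was not tested apart from this scarcity of clusters. On the telomere side, the outermost 1 Mb held 9 domains on 3R, 8 on 3L, and 7 each on 2L, 2R and the X. The outermost of all started 14.5 kb from the end of 2L, at 14540.

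Counted in the 117 full 1-Mb bins of the arms, a bin held a median of 3 domains by the position of their midpoints, and 15 bins held none. The X had 5 such bins of 22, 2L and 3L had 3 each, and 2R and 3R had 2 each. The fullest bins, with 10 domains each, were 3R at 25000001 to 26000000, 3L at 22000001 to 23000000 and 2R at 15000001 to 16000000. Domains filled 14.5%, 14.4% and 13.1% of these. The 12 fullest bins together held 101 domains, or 24.5% of them, and 12.3% of all clusters. The bins were ranked by their domains, so the first share is high by choice. Bins tied at 7 domains lay on both sides of this cut, so the share of clusters depends on which of them are taken. Across the 117 bins, the number of domains and the number of all clusters had a Spearman correlation of 0.514. The domains are themselves counted among the clusters, and neighbouring bins are not independent.

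Spacing of the domains spread over a wide range. The gap from a domain to the next on its arm had a median of 120.3 kb over 408 gaps, with quartiles of 21.7 and 354 kb. A median of 15 narrower clusters lay between neighbouring domains. Gaps of at most 100 kb numbered 187, or 45.8%, gaps of at most 10 kb numbered 71, or 17.4%, and 26 were no longer than 1 kb. At the other end, 19 gaps exceeded 1 Mb. The 5 longest were 3.00 Mb on 3L between 9424976 and 12429868, 1.86 Mb on the X between 2490728 and 4346438, 1.85 Mb on the X between 13718762 and 15569350, 1.60 Mb on the X between 12109844 and 13710396, and 1.42 Mb on 3R between 12354914 and 13775684. These stretches were not empty of the mark, since between 107 and 286 narrower clusters lay in each. Median gaps per arm ranged from 101.5 kb on 2R to 158 kb on 3L.

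**Figure D2:**
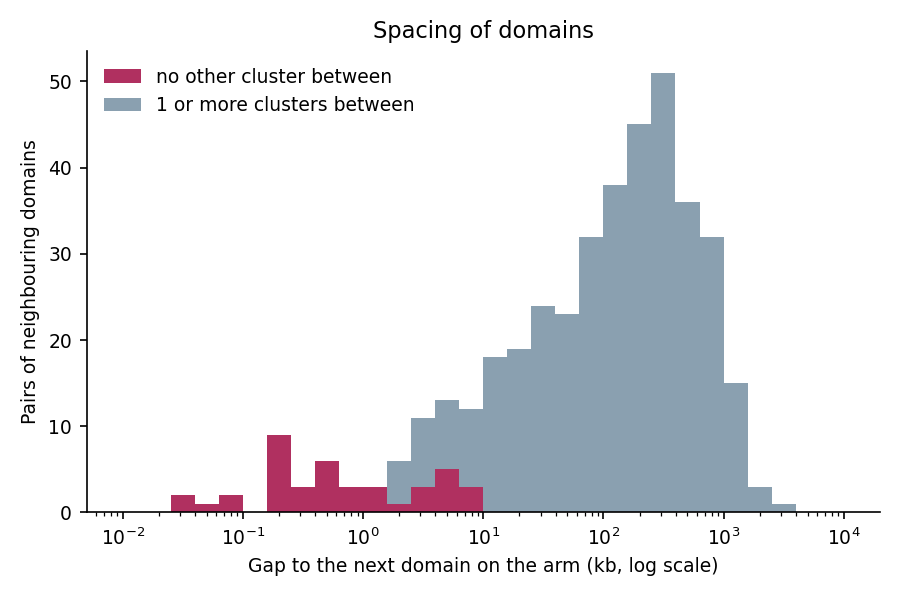
Gaps between neighbouring domains of an arm, in kb on a log axis, with the number of pairs of domains on the vertical axis. The 41 pairs with no other cluster between them have gaps of 27 to 8433 bp, while the median of all 408 gaps is 120.3 kb.

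In 41 pairs the next cluster after a domain was itself a domain, while domains made up 3.35% of all clusters. A like count for narrower clusters is not given here, and whether such adjacency is particular to domains was not tested. The gaps of these 41 pairs ranged from 27 to 8433 bp, with a median of 513 bp. The shortest 5 were 27 bp on 2L before 3608034, 29 bp on the X before 20614002, 49 bp on 2L before 678476, 93 bp on 3L before 1438046 and 95 bp on 2L before 2450688. A single replicate 1 cluster bridged 2 of the 41 gaps, the 49 bp one and a 211 bp one on 2L before 4562300, and no replicate 2 cluster bridged any. The 2 domains on each side of the 29 bp gap span 38.5 kb together. Likewise the third widest domain was followed after 427 bp by a 24.3 kb domain at 25114638 to 25138986, and the pair spans 61.3 kb. That second domain was 1 cluster in each replicate, covered to 99.7% in replicate 1 and 87.5% in replicate 2. In replicate 2 it held the widest cluster of the list, at 21.3 kb.

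Linking domains that lay within 10 kb of each other gave 57 groups, 43 of 2 domains and 14 of 3. Together they held 128 domains, or 31.0%, a share with no counterpart for narrower clusters here. The longest group, on 3R at 8050960 to 8121382, spans 70.4 kb and contains the widest domain. Replicate 1 covered 95.6% of that stretch and replicate 2 covered 68.7%. The next longest group of 3, on 3L at 22128620 to 22192614, spans 64.0 kb, with 86.5% and 64.5% covered. Other clusters lay close to domains as well. The nearest other cluster of the list lay a median of 401 bp from a domain, against 1159 bp for the other clusters of the large arms. It lay within 1 kb of 71.4% of domains and of 46.8% of the others. For the 408 clusters of 6000 to 7999 bp, just under the threshold, the median was 583 bp and the share 64.0%, between these values.

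Domains ranked high in score without being the strongest clusters. The median score was 0.719 for domains and 0.458 for other clusters, which put domains at a median percentile of 76.7 within the list and the others at 48.4. Scores above the list median of 0.463 were held by 405 of the 413 domains, or 98.1%, against 50.0% of all clusters by construction. Clusters of 6000 to 7999 bp had a median percentile of 76.3, close to that of domains, but a wider spread. Their quartiles were 66.0 and 89.2, against 70.0 and 83.5 for domains. Among the 100 clusters of highest score 4 were domains, among the top 500 there were 25, and among the top 1000 there were 47. Domains made up 3.35% of the whole list. Across the 413 domains, width and score had a Spearman correlation of 0.029, and across the other 11909 clusters 0.584. Both values come from the same calls, and the domains span a narrower range of ranks.

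The highest-scoring domain was 8.44 kb wide, on 2R at 19944460 to 19952902, with a score of 2.07 and rank 57 of the list. Its best clusters scored 2.55 in replicate 1 and 2.17 in replicate 2. Next came 2R at 15996308 to 16004586 with 2.04, 2R at 15713306 to 15721690 with 2.03, 3R at 27042478 to 27052574 with 1.97 and 2R at 17025308 to 17035082 with 1.92. All 5 were narrower than the median domain, at 8.28 to 10.1 kb, and 4 of them lay on 2R. The lowest score belonged to 3L at 6309910 to 6318370, which scored 0.408 at percentile 31.4. It was followed by 3R at 15641878 to 15650286 with 0.411, 3R at 12345208 to 12354914 with 0.423, 3L at 4884422 to 4893232 with 0.424 and 3R at 17465408 to 17473666 with 0.433. Of these 5 low-scoring domains, 3 had no cluster in replicate 2.

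Each of the 413 domains was overlapped by replicate 1 by at least 1 bp, against 64.1% of all series-wide clusters. Replicate 2 overlapped 401, or 97.1% (95% Wilson interval 94.99 to 98.3%, for counting error alone), against 47.7% of all clusters. Both replicates did so for the same 401, against 43.5% of all clusters. A wide region offers more bases for an overlap, and for the clusters of 6000 to 7999 bp the share overlapped by both was 93.9%. Replicate 1 covered 90.2% of the domain bases and replicate 2 covered 62.6%, a mean of 76.4% ± 19.5 (SD, n = 2). For the clusters of 6000 to 7999 bp these values were 86.9% and 61.3%, and for all clusters under 8 kb they were 68.7% and 48.6%.

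Replicate 1 covered more of most domains than replicate 2. Its share was the larger in 386 domains and that of replicate 2 in 27. Replicate 1 covered the larger share of 6758 of the 12322 series-wide clusters, or 54.8%, but only 7899, or 64.1%, had a replicate 1 cluster at all. All 413 domains had one, so the 386 and the 6758 are not on the same footing. Clusters that neither replicate overlapped count as not larger, so the 54.8% is no even split. The median difference, replicate 1 minus replicate 2, was 23.6 percentage points. At least 90% of the bases were covered by replicate 1 in 247 domains, or 59.8%, against 41.5% of all clusters. For replicate 2 this held in 57 domains, or 13.8%, which is under the 20.3% of all clusters. In 52 of the 413 domains it held for both replicates. In the whole list it held with a single cluster of each replicate for 1918 of 12322 clusters. The share over all clusters is thus at least 15.6%. The replicate 1 list is longer, with 8495 clusters against 6772. When it was shortened to its 6772 highest-scoring clusters, an alternative chosen after seeing the data, it covered 88.5% of the domain bases.

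**Figure D3:**
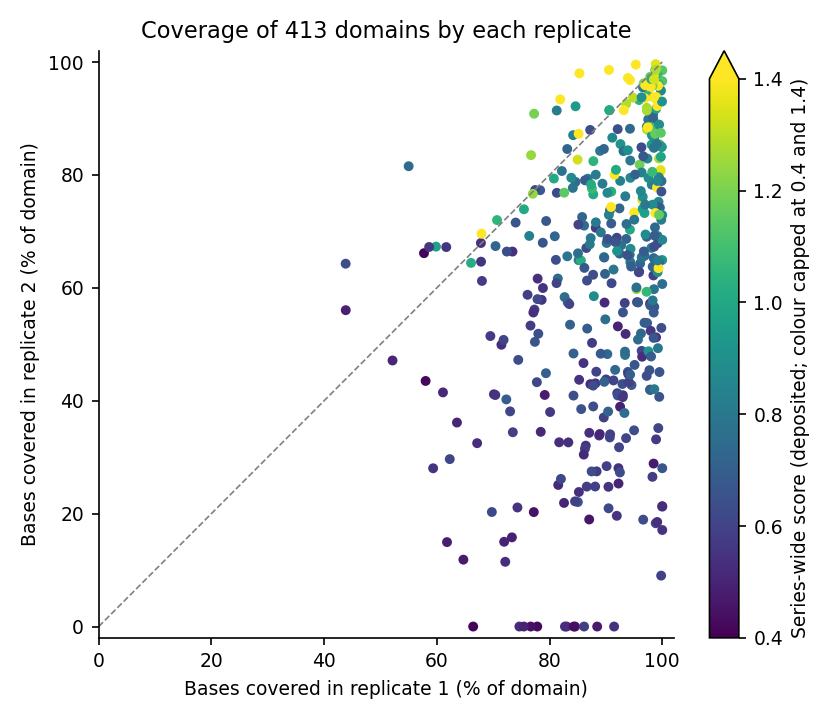
Share of bases covered in each of 413 domains by replicate 1 (horizontal axis, %) and replicate 2 (vertical axis, %), coloured by the series-wide score, with a dashed line where both are equal. Of the domains, 386 lie under the line, and the 12 at 0 on the vertical axis have low scores, of 0.408 to 0.579.

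Base by base, 59.8% of the domain sequence was covered in both replicates, 30.4% in replicate 1 alone, 2.80% in replicate 2 alone and 7.00% in neither. Replicate 1 covered 95.5% of the bases that replicate 2 covered, beside 90.2% of all domain bases. Replicate 2 left out 71.4% of the bases that replicate 1 left out, and 33.7% of those that replicate 1 covered.

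Coverage in replicate 2 followed the score of the domain. The domains were divided by score into 4 classes of 103 or 104. In the class of lowest scores, 0.408 to 0.597, replicate 1 covered 82.3% of bases and replicate 2 covered 35.7%. In the class of highest scores, 0.909 to 2.07, they covered 94.4% and 85.6%. The Spearman correlation of score and covered share across domains was 0.454 for replicate 1 and 0.814 for replicate 2. Since the score was made from these same libraries, this is a description of the lists.

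The 12 domains without a replicate 2 cluster all stood in that lowest class. They measured 8.15 to 13.2 kb, scored 0.408 to 0.579, and were covered to 66.4% to 91.5% by replicate 1. The arm 3L held 5 of them, at 3861868 to 3872066, 4884422 to 4893232, 6309910 to 6318370, 7140128 to 7148708 and 18310494 to 18319236. The arm 3R held 3, at 9755308 to 9763456, 17465408 to 17473666 and 19738062 to 19746646. The others were 2L at 4361060 to 4371078 and 18354166 to 18362906, 2R at 17709666 to 17718012, and the X at 5887876 to 5901112, which at 13.2 kb was the widest of the 12.

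The 5 largest differences in covered share included 4 of these 12 domains. The other was a 19.0 kb domain on 2L at 4489180 to 4508192, which 1 cluster of replicate 1 covered to 99.8% while 1 cluster of replicate 2 covered 9.02%. The reverse was seen most in 3L at 1163214 to 1172182, with 55.0% in replicate 1 and 81.5% in replicate 2, and next in X at 7501818 to 7510260, with 43.8% and 64.3%. Then came X at 1788364 to 1796708 with 77.3% and 90.8%, 3R at 23740768 to 23752082 with 85.3% and 98.0%, and 2R at 9346654 to 9362894 with 43.8% and 56.0%. Differences in this direction were at most 26.5 points, while in the other direction they reached 91.5 points.

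Most domains were split into separate clusters in at least 1 replicate. Replicate 1 held 1 cluster in 195 domains, 2 in 148, 3 in 54, 4 in 14 and 6 in 2. Replicate 2 held none in 12, 1 in 113, 2 in 152, 3 in 84, 4 in 27, 5 in 15, 6 in 8 and 7 in 2. Thus 218 domains, or 52.8%, were overlapped by 2 or more clusters of replicate 1, against 4.72% of all series-wide clusters. For replicate 2 it was 288, or 69.7%, against 4.97% of all clusters, and the mean of the replicates was 61.3% ± 11.98 (SD, n = 2). Room for a split grows with width, and for the clusters of 6000 to 7999 bp the shares were 30.6% and 36.5%. Both replicates split 167 domains, and both held a single cluster in 72. In 121 domains replicate 1 held a single cluster and replicate 2 held 2 or more, and in 41 it was the other way round. A single cluster may cover little of a domain. The only replicate 2 cluster in 2R at 4077544 to 4086158 covered 19.0% of it. The most clusters of replicate 2, 7 in each case, lay in the widest domain and in a 24.6 kb domain on 3R at 15155162 to 15179800, which replicate 1 covered to 99.8% with 1 cluster. The 2 domains with 6 clusters of replicate 1, named after their values were seen, were X at 20590782 to 20613972 and 2R at 15810008 to 15827454.

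**Figure D4:**
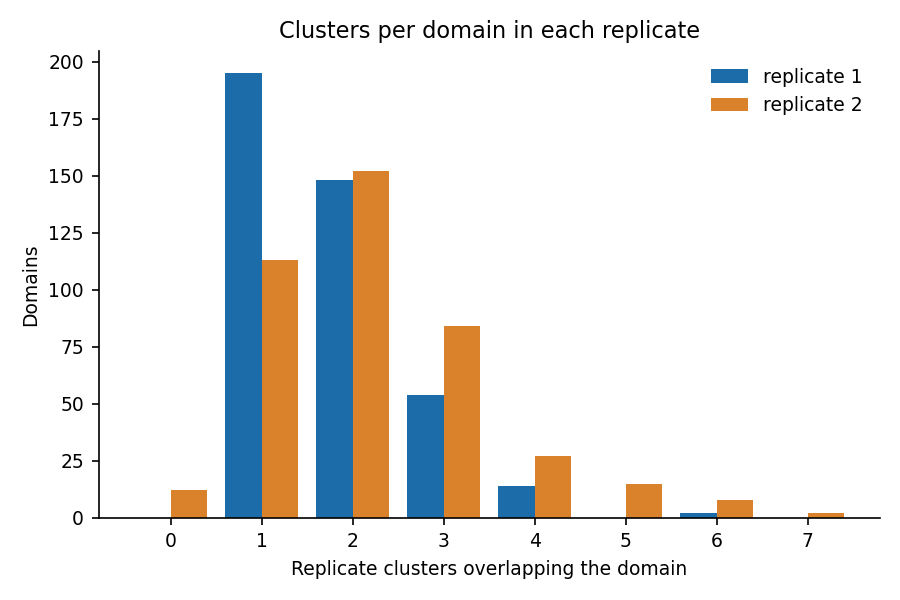
Number of domains (vertical axis) by the number of clusters of replicate 1 or of replicate 2 that overlap them (horizontal axis). Replicate 1 has its highest bar at 1 cluster, with 195 domains, and replicate 2 at 2 clusters, with 152.

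Splitting increased with width in both lists. Replicate 1 split 44.0% of domains of 8 to 10 kb, 54.0% of 10 to 15 kb, 70.0% of 15 to 20 kb and 80.0% of 20 kb or more. Replicate 2 split 53.9%, 78.7%, 92.5% and 96.7% of the same classes. Covered share over the same classes was 88.8%, 89.5%, 90.5% and 94.6% in replicate 1, and 62.0%, 60.2%, 66.0% and 66.4% in replicate 2. By score, replicate 1 split 75.0% of domains in the lowest score class and 31.1% in the highest. Replicate 2 split 61.5% and 52.4%, with more in between, at 83.5% and 81.6%. The lowest class includes the 12 domains with no replicate 2 cluster, which count as not split, and replicate 2 covered 35.7% of its bases.

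Gaps within domains were short in replicate 1 and longer in replicate 2. Replicate 1 left 308 gaps between its clusters, with a median of 368 bp, and 58.1% were at most 500 bp. Replicate 2 left 513 gaps, with a median of 700 bp, and 40.5% were at most 500 bp. Gaps of over 2000 bp numbered 14 in replicate 1 and 97 in replicate 2. The longest of replicate 1 was 3791 bp on 3R at 9718327 to 9722117, and the longest of replicate 2 was 11729 bp on 2R at 2996101 to 3007829. That 2R gap was covered to 94.5% by replicate 1. Of the gaps of replicate 1, 162, or 52.6%, were also bare of replicate 2, and 73 were wholly covered by it. Of those of replicate 2, 11 were bare of replicate 1, and 377, or 73.5%, were wholly covered by it. In the 167 domains split by both, the best-scoring cluster of one replicate overlapped that of the other in 124, or 74.3%.

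A single cluster covered at least 90% of the bases in 141 domains in replicate 1 and in 30 domains in replicate 2. For either replicate alone, no such share over all clusters is given here. In 23 of 413 domains this held in both replicates, against 1918 of 12322 series-wide clusters, or 15.6%, most of which are narrower. The share was thus lower among domains than in the whole list. For the whole list, exactly 1 cluster of each replicate was required. Of these 23, 8 lay on 2L, 4 on each of 2R, 3L and 3R, and 3 on X. Their median score percentile in the series-wide list was 92.1 and their median width 9.28 kb. The widest was 15.4 kb on 2R at 18131050 to 18146480, with a score of 0.969, covered to 98.8% by replicate 1 and 98.6% by replicate 2. Next came 3L at 16573018 to 16584930, 11.9 kb wide, scoring 1.35, with coverage of 98.8% and 99.6%. These domains were chosen here by their coverage after their values were seen.

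Coverage was nearly level along the inside of the domains and dropped at their ends. Each domain was cut into 20 equal parts and the share of covered bases averaged over domains. In the 10 middle parts it averaged 94.2% in replicate 1 and 67.9% in replicate 2. In the outermost part at either end it averaged 64.3% and 33.3%. Replicate 1 edges were close to those of the series-wide list: its outermost cluster start or end lay a median of 110 bp from that of the domain, and 60.7% of 826 edges lay within 200 bp. In replicate 2 the median was 585 bp and 31.3% of 802 edges lay within 200 bp. The mean of these medians was 348 bp ± 336 (SD, n = 2). Clusters of replicate 1 reached over 1000 bp outside in 20 domains, and those of replicate 2 in 0.

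**Figure D5:**
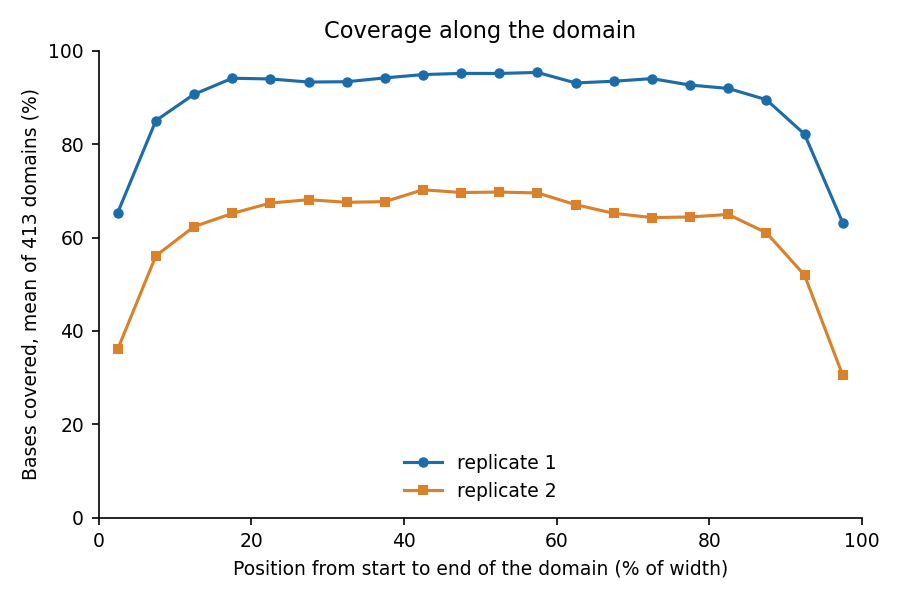
Share of bases covered (vertical axis, mean of 413 domains, %) in 20 equal parts from the start to the end of the domain (horizontal axis, % of width) for each replicate. Away from the 2 outermost parts at each end, replicate 1 lies between 89.5% and 95.4% and replicate 2 between 61.0% and 70.2%, and both are lowest in the outermost parts.

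Read on their own, the replicate lists held fewer clusters of this width. Replicate 1 had 222 clusters of at least 8000 bp, or 2.61% of its list, and replicate 2 had 50, or 0.738%. Of these, 215 of replicate 1 and all 50 of replicate 2 overlapped a domain. In turn, 210 domains, or 50.8%, were overlapped by a replicate 1 cluster of that width, 49 by one of replicate 2, 43 by both, and 197 by neither. An overlap of 1 bp was enough, so part of such a cluster may lie outside the domain. Those 197 were thus that wide in the series-wide list and in neither replicate alone. The widest cluster overlapping a domain, measured over its full length, had a median width of 8081 bp in replicate 1 and 4218 bp in replicate 2. It took up a median of 74.6% of the domain in replicate 1 and 36.1% in replicate 2.

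Each domain was also described by the best-scoring of its clusters in a replicate, a choice that gives regions with several clusters more chances of a high rank. Within its own list, the median percentile of this best cluster was 69.1 in replicate 1 and 61.2 in replicate 2. It ranked above the list median for 376 of 413 domains in replicate 1 and for 283 of 401 in replicate 2, against 52.5% and 54.5% of all series-wide clusters that had a cluster of that replicate. In the clusters of 6000 to 7999 bp the median percentiles were 69.0 and 61.5, close to those of domains. Best scores of the replicates had a Spearman correlation of 0.804 across the 401 domains with both, which are sites of the same libraries and not independent samples.

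On the X, 57 domains were set beside the 356 of the autosome arms. Median covered share per domain was 93.2% on the X and 92.5% on the autosome arms in replicate 1, and 69.3% and 65.4% in replicate 2. As a share of all domain bases, the order was reversed in replicate 1, with 89.5% on the X and 90.3% on the autosome arms. In replicate 2 it was 65.2% and 62.2%. Replicate 1 split 50.9% of X domains and 53.1% of autosome domains, and replicate 2 split 66.7% and 70.2%. Median score was 0.806 on the X and 0.708 on the autosome arms, at percentiles of 80.4 and 76.2. For the other clusters these percentiles were 61.7 and 44.3, a wider distance than among domains. These differences were not tested.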

How the data were processed

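The deposited files are 3 lists of enriched regions in GFF3 format, one per ChIP replicate and one for the series. Coordinates are those of FlyBase release 5, per the file headers. Each region has a score, deposited by the authors. Its scale, the aligner, the caller and threshold used, and how the series-wide list was put together were not given in the sources used here. Read depth is unknown.

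Domains were the series-wide clusters of at least 8000 bp. For each, the overlapping clusters of a replicate (by at least 1 bp), the bases covered, the gaps and the outermost edges were computed. Score percentiles are ranks within one list. Wilson intervals cover counting error alone. The members, measures and named regions were chosen with earlier results of these data known. The named regions are the 10 widest, those with the 5 highest and 5 lowest scores, the 5 largest and 5 smallest differences in coverage, the 5 shortest and 5 longest gaps, the 5 with most clusters in a replicate, the 3 clusters on each side of the threshold, and all without a cluster in a replicate. No domain lay off the large arms. The code was tested on simulated data. Computations ran in Python 3.11.15 with pandas 2.3.3, numpy 2.4.6 and scipy 1.17.1, and figures were drawn with matplotlib 3.10.9.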

Additional observations from a re-analysis of the deposited data

How the results depend on the processing

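The number of domains and everything that counts pieces depend on settings. A width threshold of 6000 bp gave 821 domains and one of 10000 bp gave 220, and merging series-wide clusters across gaps of up to 500 bp gave 711. The median gap to the next domain moved to 53.2, 217.6 and 69.5 kb under these, in place of 120.3 kb. Domains with clusters of both replicates made up 98.6% at 10000 bp and 67.3% when the lower-scoring clusters of each replicate were dropped (those under its median score), a setting with fewer clusters by construction. The mean share of split domains moved to 47.5% at 6000 bp, to 21.7% with the low-scoring clusters dropped, and to 37.9% with replicate clusters merged across gaps of up to 500 bp. Apart from fewer or merged clusters, the cause was not tested. Over 8 settings 32 values were recomputed, of which 21 stayed within their spread or interval (for counts of domains, within a factor of 1.5). The 5 large arms alone hold every domain and so give identical values, not counted here. With the low-scoring clusters dropped, covered share was 76.8% in replicate 1 and 38.6% in replicate 2, in place of 90.2% and 62.6%. The mean was 57.7% in place of 76.4%. Edge distance was 179 and 1181.5 bp in place of 110 and 585 bp, a mean of 680 bp in place of 348 bp. Both shifts lie inside the SD of n = 2 and count among the 21. That SD is set by the difference between the replicates, and both replicates moved the same way. Staying inside it does not show that these values were unchanged. With 1 replicate left out, covered share ranged from 62.6% to 90.2%, the share overlapped from 97.1% to 100%, and the split share from 52.8% to 69.7%. The share of broad replicate clusters that overlapped a domain ranged from 96.8% to 100%, and edge distance from 110 to 585 bp. With n = 2 most such values cannot leave the SD. No paired analysis was possible because no input values were analysed here and no result rests on a test between groups. The effect of depth could not be measured.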

Other observations

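Replicate 1 held 7 clusters of at least 8000 bp that overlapped no domain. They lay on 2R at 1780853 to 1789560, 7899661 to 7907869 and 18746963 to 18756578, on 3R at 13647636 to 13658037, 24355150 to 24366357 and 25517738 to 25528983, and on the X at 1961472 to 1972281. Each overlapped 1 to 3 narrower series-wide clusters, which covered 94.3% to 99.99% of it. These stretches were thus broad in replicate 1 and divided, or just under the threshold, in the series-wide list.

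In the series-wide list, 12322 of 12322 clusters had an even start and an even end, and its narrowest cluster measured 1001 bp. In the replicate lists, 24.7% of the clusters of replicate 1 and 25.6% of those of replicate 2 had both coordinates even. The domain edges therefore lie on a grid of 2 bp that the replicate lists do not share.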
